A study of Mus musculus with 2 samples.

Results

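The genes described here are 9 mouse enzymes of purine breakdown and salvage: Xdh, Uox, Urah, Aox1, Aox3, Pnp, Ada, Adk and Gda. They were chosen by a rule on symbols that uses no measured value, as those present in the gene and transcript tables of both libraries. All 9 were found among 43346 Ensembl genes, with 24 deposited transcripts. The samples were 2 polyA-selected RNA-seq libraries, labelled technical replicates 2 and 1 of biological replicate 1, from the liver of 1 female C57BL/6J mouse aged 10 weeks. Per the labels, library 2 was a later addition to the experiment, and no date is given for library 1. Both libraries carry the same description and form 1 group, so the differences below compare libraries and not conditions. Each difference is unreplicated and has no p-value. A mean ± SD covers technical spread between 2 libraries of 1 animal.

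In liver, purine nucleosides released by nucleotide turnover are either rebuilt into nucleotides or stripped to free bases and oxidised. Adenosine kinase returns adenosine to AMP, whereas adenosine deaminase and purine nucleoside phosphorylase lead through inosine to hypoxanthine. Guanine joins the same route as xanthine, and xanthine dehydrogenase makes urate. Most mammals, but not humans, then convert urate to allantoin in the peroxisome, beginning with urate oxidase. The aldehyde oxidases are relatives of xanthine dehydrogenase that use the same molybdenum cofactor and act on aldehydes and nitrogen heterocycles.

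Expected (estimated) counts summed to 19525500 in library 2 and 23309905 in library 1. Mitochondrial genes held 14.9% of TPM (a length-normalised transcript level with the same total in each library) in library 2 and 40.7% in library 1, and nuclear protein-coding genes held 73.7% and 37.6% of TPM in libraries 2 and 1. Because of this gap, a second scale, rescaled TPM, is given, in which the 21537 nuclear protein-coding genes alone sum to the total of TPM. All 6 hepatocyte markers were detected, with a summed level of 60662 TPM in library 2 and 24902 TPM in library 1. The Kupffer cell (6 of 6 markers detected in at least 1 library), endothelial (5 of 5), stellate (5 of 5) and cholangiocyte (4 of 5) lists summed to 63.2 to 165 TPM in library 2 and 26.3 to 179 TPM in library 1. Pancreatic markers summed to 0 TPM in library 2 and 0.12 TPM in library 1, and kidney markers to 0.03 TPM and 2.34 TPM in libraries 2 and 1. Of the 4 small intestine markers, Alpi was listed at 0 in both libraries, and nearly all of the list's sum of 197 TPM in library 2 and 73.8 TPM in library 1 was Apoa4 (116 and 3.06 TPM in libraries 2 and 1) and Fabp2 (80.4 and 70.7 TPM in libraries 2 and 1).

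Together the 9 genes held 2210 TPM in library 2 and 1600 TPM in library 1. Xdh, Uox and Urah, which make urate, oxidise it and act on the oxidation product, held 1584 TPM in library 2 and 1165 TPM in library 1. The order of mean levels was Uox, Adk, Urah, Pnp, Aox3, Xdh, Aox1, Gda and Ada. For 5 of the 8 neighbouring pairs in this order the ranges of the 2 libraries overlapped, so those neighbours are not separated beyond the library spread. The ranges did not overlap between Uox and Adk, Aox3 and Xdh, or Gda and Ada. Within each library Urah also exceeded Pnp, 2.40-fold in library 2 and 2.53-fold in library 1, and Xdh exceeded Aox1, 2.28-fold and 1.59-fold in libraries 2 and 1. A gene counted as detected at 1 TPM, which all 9 genes reached in library 2 and 8 reached in library 1, Ada being the exception.

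**Figure D1:**
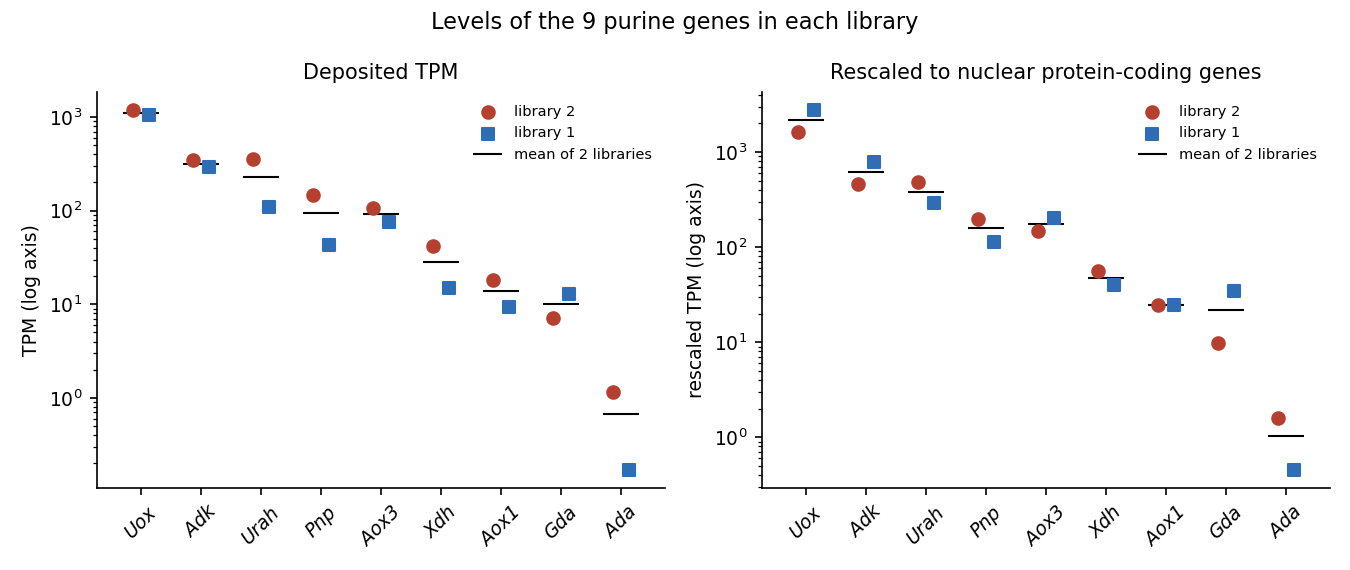
Level of each gene in library 2 (circles) and library 1 (squares) with the mean of the 2 libraries (line), in deposited TPM (left) and rescaled to nuclear protein-coding genes (right), on log axes. Deposited TPM was higher in library 2 for 8 of 9 genes, and Uox stood highest on both scales. That count uses no threshold, and its share over all genes was not computed. Past a 2-fold difference by TPM ratios, 4 of the 9 genes were higher in library 2 and 0 lower. Of all genes past that difference, 94.6% were higher in library 2. On the rescaled scale Uox, Adk, Aox3 and Gda were lower in library 2, and Aox1 was nearly level (24.6 in library 2, 24.9 in library 1).

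Uox, the peroxisomal enzyme that oxidises urate, was the most abundant transcript of the group. Its level was 1189 TPM in library 2 and 1041 TPM in library 1, a mean of 1115 ± 104 TPM (SD, n = 2). It ranked 79 in library 2 and 53 in library 1 among nuclear protein-coding genes. The 2 libraries lay close together on this scale, yet after rescaling to nuclear protein-coding genes library 2 was the lower, at 1612 rescaled TPM against 2772 rescaled TPM in library 1. The gene (chr3:146570426-146632305, plus strand, GRCm38) had 24496 expected counts in library 2 and 25851 in library 1.

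In both libraries the larger part of those TPM was assigned to transcripts other than the full-length coding one. Uox-203, a 448-base transcript annotated as a retained intron, held 50.8% of the gene's TPM in library 2 and 62.9% in library 1. The 2737-base coding transcript Uox-201 held 46.6% of TPM in library 2 and 35.9% in library 1. By counts the order was the other way: Uox-201 had 21812 counts in library 2 and 21754 in library 1, or 89.0% and 84.2% of the gene's counts in libraries 2 and 1. Uox-203 had 2433 counts in library 2 and 3965 in library 1, with deposited posterior standard deviations of 51.0 and 51.4 counts. Its effective length, by which counts are divided to give TPM, was 261 bases in library 2 and 266 in library 1. Uox-201 alone stood at 554 TPM in library 2 and 374 TPM in library 1.

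Uox-203 shares exons 1 to 3 with Uox-201, except that it starts later in exon 1 (chr3:146597166, against chr3:146597077 for Uox-201). It ends 44 bases into intron 3, an intron of 93 bases. The point where they part is shown because it is where their sequences begin to differ downstream of the shared exons. The tables give no reads by exon or junction, so what the split of counts rests on was not tested. Both sequences are GENCODE M21, GRCm38, plus strand, 5′ to 3′. The lower-case letters are the shared end of exon 3 at chr3:146612370-146612399. The capitals are the start of exon 4 at chr3:146612493-146612522 in Uox-201, and the start of intron 3 at chr3:146612400-146612429 in Uox-203.
Uox-201: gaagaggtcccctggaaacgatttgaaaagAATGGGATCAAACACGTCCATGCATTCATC
Uox-203: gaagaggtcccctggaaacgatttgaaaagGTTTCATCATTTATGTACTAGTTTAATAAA
The retained part of the intron had a GC content of 27.3%, against 46.0% in exons 1 to 3 and 42.5% in exons 4 to 8.

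Urah encodes the enzyme that hydrolyses 5-hydroxyisourate, the product of urate oxidase. It stood at 354 TPM in library 2 and 108 TPM in library 1 (231 ± 174 TPM, SD, n = 2), with 3128 expected counts in library 2 and 1331 in library 1. Library 2 was the higher in TPM, in counts and on the nuclear protein-coding scale, at 480 rescaled TPM against 289 rescaled TPM in library 1. Uox exceeded Urah 3.36-fold in library 2 and 9.60-fold in library 1 in gene TPM, which includes Uox-203. Uox-201 alone, at 554 TPM in library 2 and 374 TPM in library 1, exceeded Urah by less.

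The transcripts of Urah (chr7:140835018-140837966, plus strand) changed places between the libraries. Urah-202 held 43.4% of the gene's TPM in library 2 and was listed at 0 in library 1, with 1259 and 0 expected counts in libraries 2 and 1. Urah-201 held 23.5% in library 2 and 0.22% in library 1. Urah-204 held 31.8% in library 2 and 99.6% in library 1, where it had nearly all of the gene's counts. Urah-204 itself differed little in TPM, at 112 TPM in library 2 and 108 TPM in library 1. Its expected counts were lower in library 2, at 926 against 1324 in library 1. On the TPM scale the gene's difference thus lay in Urah-202 and Urah-201. These 3 coding transcripts differ in where they begin, and Urah-204 starts 279 bases downstream of Urah-202. Their ends differ too: Urah-202 ends at chr7:140837887, and Urah-201 and Urah-204 end at chr7:140837966. The first exon of Urah-202 is 241 bases long with a GC content of 61.4%. The first exon of Urah-204 is 159 bases at 59.1%. The part of Urah-201 before the start of exon 2 of Urah-202 is 333 bases at 57.4%. The part of Urah-202 after its first exon, 478 bases long, has a GC content of 54.6%.

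The splice junction of Urah-202 is shown because no count was assigned to that transcript in library 1 (GENCODE M21, GRCm38, plus strand, 5′ to 3′). Lower case marks the end of exon 1 at chr7:140835229-140835258 and capitals the start of exon 2 at chr7:140835612-140835641.
Urah-202: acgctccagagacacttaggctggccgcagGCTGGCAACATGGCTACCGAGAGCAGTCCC
The RefSeq promoter window below (GRCm38.p6, chr7:140835029-140835328, plus strand) overlaps these alternative first exons without holding any of them whole. It runs from 250 bases before an annotated start to 50 after it, and GC box cores (GGGCGG on either strand) are in capitals.
Urah promoter: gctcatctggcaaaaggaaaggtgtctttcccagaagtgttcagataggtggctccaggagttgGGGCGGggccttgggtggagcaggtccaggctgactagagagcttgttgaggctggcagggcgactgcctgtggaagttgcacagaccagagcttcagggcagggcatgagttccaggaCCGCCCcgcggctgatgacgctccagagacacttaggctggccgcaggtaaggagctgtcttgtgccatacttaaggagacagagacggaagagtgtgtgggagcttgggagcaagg
The window has a GC content of 59%, 8 CpG dinucleotides and 2 GC box cores, which begin 186 and 67 bases before the start. A second Urah window, at chr7:140834888-140835187 and overlapping this one, has 57% GC, 2 CpG and 1 GC box core. The median over 32851 RefSeq windows was 52.7% GC and 7 CpG, and 35.7% of windows held a GC box core. Of the 9 genes, 8 had at least 1 such window, 10 windows in all. The GC box core was in 7 of the 10 windows and the CCAAT box core (CCAAT, either strand, in 37.4% of all windows) also in 7. These windows are not independent: the 2 Urah windows overlap and share 1 GC box core, and Adk counts with 2 windows for each core. None of the 10 held TATAAA (13.6% of all windows), the E-box CACGTG (7.15%) or the HNF4A site core CAAAGTCC (1.42%) on either strand.

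Xdh, which oxidises hypoxanthine and xanthine to urate, was far less abundant than the enzyme that removes its product. It stood at 41.5 TPM in library 2 and 14.9 TPM in library 1 (28.2 ± 18.8 TPM, SD, n = 2), with 2814 expected counts in library 2 and 1491 in library 1. Uox exceeded Xdh 28.7-fold in library 2 and 70.1-fold in library 1 in gene TPM, of which Uox-203 held the larger part. The coding Uox-201 alone, at 554 TPM in library 2 and 374 TPM in library 1, exceeded Xdh by less. On the nuclear protein-coding scale Xdh stood at 56.2 rescaled TPM in library 2 and 39.5 rescaled TPM in library 1, and it ranked 1898 and 2584 in libraries 2 and 1. It has a single deposited transcript, of 4587 bases (chr17:73883895-73950196, minus strand).

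Aox3 was the main aldehyde oxidase. Its level was 108 TPM in library 2 and 76.2 TPM in library 1 (92.1 ± 22.5 TPM, SD, n = 2), from 6827 and 6967 expected counts in libraries 2 and 1. Aox1 stood at 18.2 TPM in library 2 and 9.35 TPM in library 1 (13.8 ± 6.24 TPM, SD, n = 2), from 1219 and 933 expected counts in libraries 2 and 1. The genes lie side by side on the plus strand of chromosome 1, Aox1 at chr1:58029931-58106413 and Aox3 at chr1:58113130-58200698. Aox3 exceeded Aox1 5.95-fold in library 2 and 8.15-fold in library 1, so the order held in both. Of the other genes of this cluster, Aox2 had 0.02 TPM in library 2 and 0.03 TPM in library 1, and Aox4 was listed at 0 in both. Coding sequences of Aox1 and Aox3 were identical at 66.3% of 3980 aligned bases, with no identical run over 20 bases.

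The transcript make-up of both genes was close in the 2 libraries. The main coding transcript of Aox3, of 4606 bases, held 91.2% of TPM in library 2 and 89.1% in library 1. A 322-base retained-intron transcript of the same gene held 4.86% in library 2 and 6.88% in library 1, which rested on 11.3 and 17.0 expected counts in libraries 2 and 1. The coding transcript of Aox1, of 4423 bases, held 94.4% in library 2 and 93.1% in library 1. The rest of Aox1, 5.61% in library 2 and 6.92% in library 1, was a retained-intron transcript of 6429 bases.

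Pnp encodes purine nucleoside phosphorylase, which releases hypoxanthine from inosine and guanine from guanosine. Its level was 147 TPM in library 2 and 42.9 TPM in library 1 (95.2 ± 73.9 TPM, SD, n = 2). The expected counts differed much less, at 3284 in library 2 and 2700 in library 1. The gene's effective length, which links these scales, was 1444 bases in library 2 and 2759 in library 1, and the counts went to different transcripts. Pnp-202, of 1306 bases, had 80.1% of the gene's TPM and 2039 counts in library 2 and was listed at 0 in library 1. Pnp-201, of 2942 bases, held 19.9% in library 2 and 100% in library 1, with 1245 counts and 2700 counts in libraries 2 and 1. Pnp-201 alone stood at 29.3 TPM in library 2 and 42.9 TPM in library 1, so the gene's direction on the TPM scale came from Pnp-202.

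Pnp-201 and Pnp-202 share 1163 bases over exons 1 to 6, with a GC content of 50.1%. Pnp-201 then continues its last exon for 1575 bases at 41.8% GC. Pnp-202 instead joins 2 further exons, 143 bases in all at 41.3% GC, which lie 13185 bases downstream and beyond the neighbouring gene Pnp2. Whether the sample holds a molecule with those exons was not tested, since the tables give no reads by exon. M4 and M21 differ at this locus: in M21 the deposited gene identifier belongs to a readthrough gene, and both deposited transcripts are assigned to Pnp.

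Pnp2, a near-copy of Pnp beside it on chromosome 14, had 0.45 TPM in library 2 and 0.17 TPM in library 1. The coding sequences were identical at 851 of 867 aligned bases (98.2%), with an identical run of 292 bases, so the division of counts between the 2 genes is uncertain over such stretches. Pnp2 received 8.19 expected counts in library 2 and 4.61 in library 1, with posterior standard deviations of 1.30 and 0.90 counts. The gap-free 60 bases with the most differences are shown as an example of where the 2 coding sequences differ (GENCODE M21, GRCm38, plus strand, 5′ to 3′). Capitals mark the 7 bases that differ, at chr14:50951558-50951617 in Pnp and chr14:50964410-50964469 in Pnp2.
Pnp: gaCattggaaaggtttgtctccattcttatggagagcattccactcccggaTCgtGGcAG
Pnp2: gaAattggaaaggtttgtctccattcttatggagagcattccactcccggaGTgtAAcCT

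**Figure D2:**
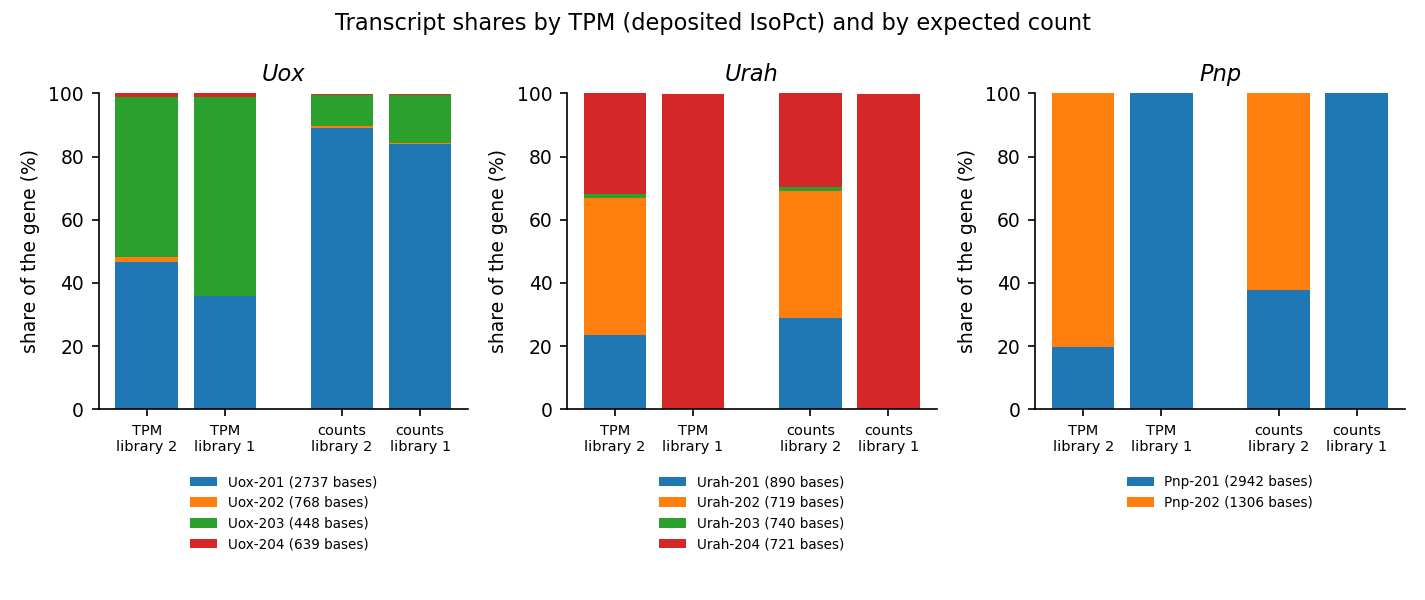
Share of each gene held by its transcripts, by TPM (left pair of bars, deposited IsoPct) and by expected count (right pair), library 2 left of library 1 in each pair, for Uox, Urah and Pnp. Uox-203 held 50.8% of TPM in library 2 and 62.9% in library 1 but 9.93% and 15.3% of counts, while Urah-202 and Pnp-202 were present in library 2 and at 0 in library 1.

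A different transcript was largest in the 2 libraries for 2 of 6 genes with at least 2 transcripts and a mean of at least 10 TPM, Urah and Pnp. Over all 3515 genes that met the same conditions, 31.8% had a different largest transcript. The largest change in share reached 20 percentage points for the same 2 genes, against 47.5% of all genes that met the conditions. It was 80.1 points for Pnp, 67.8 for Urah and 12.2 for Uox, and at most 2.05 for Aox3, Aox1 and Gda. The median over all 3515 genes was 18.4 points.

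Adk, which phosphorylates adenosine to AMP, came after Uox in the order of mean levels, although Urah exceeded it in library 2. It stood at 344 TPM in library 2 and 294 TPM in library 1 (319 ± 35.1 TPM, SD, n = 2), with 8449 and 10707 expected counts in libraries 2 and 1, all from a single deposited transcript of 1781 bases. TPM was higher in library 2 but counts and the nuclear protein-coding scale were lower there, at 466 rescaled TPM in library 2 against 782 rescaled TPM in library 1. The gene spans chr14:21052574-21448569 on the plus strand and ranked 313 in library 2 and 184 in library 1.

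Ada, which deaminates the same substrate to inosine, was at the edge of detection. It had 1.17 TPM in library 2 and 0.17 TPM in library 1 (0.67 ± 0.71 TPM, SD, n = 2), from 27 and 6 expected counts in libraries 2 and 1 (chr2:163726584-163750239, minus strand). Adk exceeded Ada 294-fold in library 2 and 1729-fold in library 1, a contrast far wider than the library spread of either gene. The 6 lymphocyte markers summed to 2.93 TPM in library 2 and 1.38 TPM in library 1, and 1 of them, Cd79a, reached 1 TPM in either library, with none at 0 in both. All 4 erythroid markers were higher in library 2, with sums of 1291 TPM in library 2 and 62.4 TPM in library 1. By the log2 fold described below, all 4 were past the threshold as higher, beside 33.0% of all genes tested. After the GC curve, also described below, their folds ran from 0.37 for Alas2 to 5.33 for Hba-a1, and that of Ada was 0.45. The part of lymphocytes or erythroid cells in the Ada level was not tested, and in bulk tissue fewer cells of a type and less RNA per cell cannot be told apart.

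Gda, which deaminates guanine to xanthine, was the single gene of the group with a lower TPM in library 2. On the nuclear protein-coding scale Uox, Adk and Aox3 were lower there too. Aox1 was nearly level on that scale, at 24.6 rescaled TPM in library 2 and 24.9 rescaled TPM in library 1. Gda stood at 7.22 TPM in library 2 and 12.9 TPM in library 1 (10.0 ± 3.98 TPM, SD, n = 2), with 584 and 1536 expected counts in libraries 2 and 1. On the nuclear protein-coding scale it had 9.79 rescaled TPM in library 2 and 34.2 rescaled TPM in library 1. All counts were assigned to Gda-201, of 5428 bases (gene at chr19:21391307-21473445, minus strand). Pnp, which supplies guanine, exceeded Gda 20.4-fold in library 2 and 3.34-fold in library 1.

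The libraries were then compared by the log2 fold of library 2 over library 1, from rounded expected counts scaled by TMM (trimmed mean of M values) with a prior count of 0.5. The threshold was a log2 fold of 1 or more in either direction. Intervals are exact 95% (Clopper-Pearson) and cover counting error only. Ada was higher in library 2, with a log2 fold of 1.77 (0.54 to 3.41), or 3.42-fold. Gda was lower in library 2, with a log2 fold of -1.72 (-1.86 to -1.58), or 3.29-fold lower. Urah had 0.91 (0.82 to 1.00) and Xdh 0.59 (0.50 to 0.69). Adk had -0.66 (-0.71 to -0.62), Uox -0.40 (-0.43 to -0.38) and Aox3 -0.35 (-0.40 to -0.30). The intervals of Aox1, at 0.06 (-0.06 to 0.19), and Pnp, at -0.04 (-0.11 to 0.03), spanned 0.

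Thus 1 of 9 genes was past the threshold as higher, 1 as lower and 7 were within it. Over the 12728 genes whose counts in the 2 libraries summed to 20 or more, 57.0% were past it, 33.0% as higher and 24.0% as lower. The median size of the log2 fold was 0.59 over the 9 genes and 1.15 over all genes. Scaling moved the split: 57.9% of all called genes were higher with TMM, against 84.5% with total counts, 84.7% with FPKM ratios and 94.6% with TPM ratios. Relative to TMM, total counts raised the median log2 fold of all genes by 0.58, FPKM ratios by 0.56 and TPM ratios by 0.86. Urah and Xdh passed the threshold as higher under those 3 scalings and Pnp under the FPKM and TPM ratios, while the signs of Uox (total counts and TPM), Aox3 (all 3), Pnp (all 3) and Adk (TPM) turned. Ada was past it under all 3, and Gda under total counts and FPKM ratios but not TPM ratios, where its log2 fold was -0.82.

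**Figure D3:**
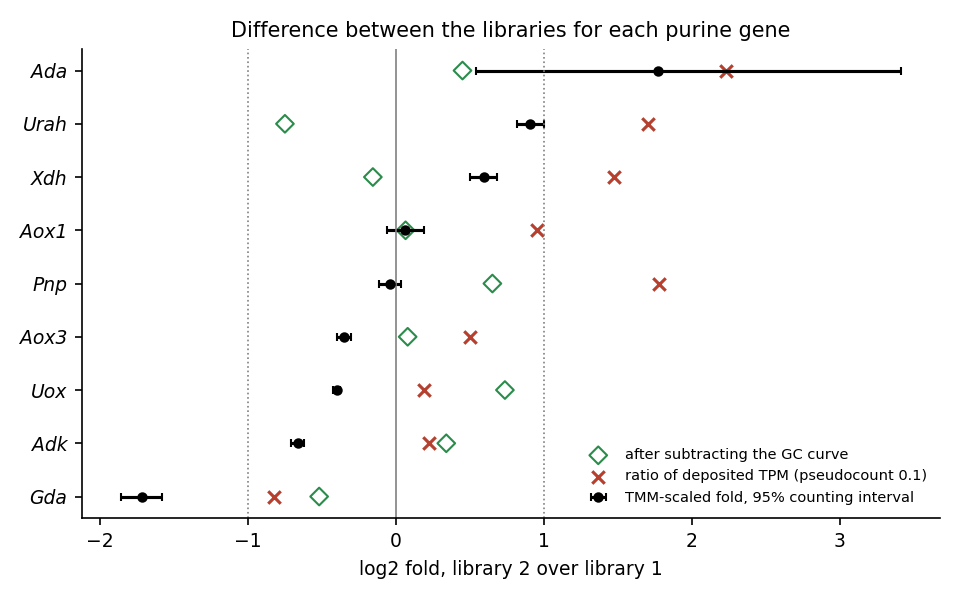
Log2 fold of library 2 over library 1 for each gene, as the TMM-scaled fold with its 95% counting interval (black), after subtracting the GC curve (diamonds) and as the ratio of deposited TPM (crosses), with dotted lines at the threshold of 1 in size. Ada at 1.77 and Gda at -1.72 are the TMM-scaled folds past the threshold, and no gene is past it after subtraction of the curve.

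The folds of the 9 genes ran in nearly the same order as the GC content of their transcripts, taken from the longest coding transcript. Gda had the lowest GC content, 42.7%, and the lowest fold. It was followed by Uox at 43.1%, Adk at 44.1%, Pnp at 46.0%, Aox3 at 47.4% and Aox1 at 49.4%. The 3 genes with the highest GC content, Xdh at 51.9%, Ada at 53.8% and Urah at 54.6%, had the 3 highest folds. Spearman's rho of fold and GC content was 0.95 over these 9 genes and 0.895 over 12128 genes, given as a description, since genes of the same 2 libraries are not independent points.

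A smooth (loess) curve relating fold to GC content across nuclear genes was subtracted to see where each gene lay relative to genes of like composition. None of the 9 genes was then past 1 in size, against 18.4% of 12128 genes, and the median size was 0.45 over the 9 genes and 0.40 over all. Uox lay 0.74 above the curve, Pnp 0.65, Ada 0.45 and Adk 0.34 above it. Aox3, at 0.08, and Aox1, at 0.07, lay on it. Urah had -0.75, Gda -0.52 and Xdh -0.16. The signs of 6 genes turned: Uox, Adk, Aox3 and Pnp became positive, and Urah and Xdh negative. For Pnp the GC content is that of Pnp-201, and Pnp-202, the larger in library 2, has 49.2%. For Urah it is that of Urah-201, which held 23.5% of the gene's TPM in library 2 and 0.22% in library 1. Urah-202, the largest in library 2, has 56.9%, and Urah-204, the largest in library 1, has 54.3%.

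**Figure D4:**
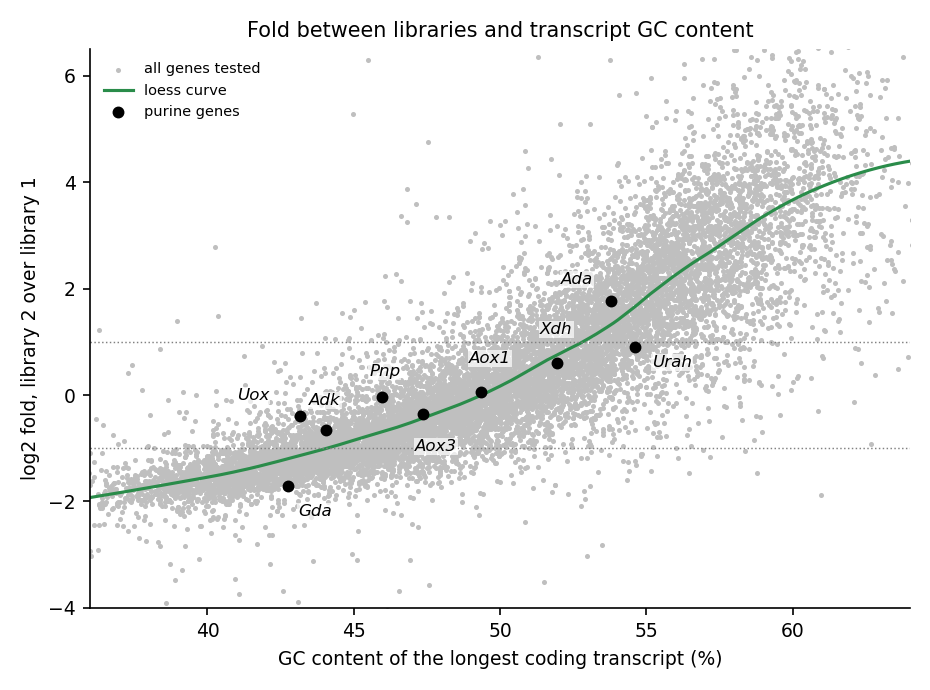
Log2 fold of library 2 over library 1 against the GC content of the longest coding transcript, for 12128 genes (grey; 182 lie outside the plotted range), with the loess curve (green) and the 9 purine genes (black). The purine genes follow the slope, Gda at 42.7% GC and a log2 fold of -1.72 to Ada at 53.8% and 1.77, and all lie within 1 log2 unit of the curve.

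Beyond the 9 genes, a list of 63 genes of purine metabolism, its cofactor and its transport was examined. Of these, 46 were tested, 16 were past the threshold as higher in library 2, 7 as lower and 23 were within it, and 10 genes were listed at 0 in both libraries. Over all genes tested, 33.0% were higher and 24.0% lower. The list's median log2 fold was 0.21, beside 0.04 over all genes, and was -0.02 after the GC curve. All 7 genes past the threshold as lower were among the 38 other purine enzymes, where 10 were higher and 13 of 30 tested genes were within it. The wider list had 1 lower gene with total counts, 1 with FPKM ratios and 0 with TPM ratios.

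Partners in urate breakdown and base salvage had TMM-scaled folds of both signs. Urad, the decarboxylase that completes the conversion of urate to allantoin after Urah, had 51.3 TPM in library 2 and 6.70 TPM in library 1, a log2 fold of 2.04, which was -0.65 after the GC curve. Hprt, which salvages hypoxanthine and guanine, had 50.5 TPM in library 2 and 74.4 TPM in library 1, a log2 fold of -1.45, which was 0.08 after the curve. Aprt, which salvages adenine, had 36.5 TPM in library 2 and 0.51 TPM in library 1, from 382 and 8 expected counts, and the highest log2 fold among the other purine enzymes, 5.18 (1.98 after the curve). Its transcript has a GC content of 58.5% and that of Hprt 40.1%. Nt5c, a nucleotidase, followed at 21.9 TPM in library 2 and 0.71 TPM in library 1 (3.96, and 1.08 after the curve). Paics, an enzyme of purine synthesis, was the most abundant of this list at 163 TPM in library 2 and 138 TPM in library 1 (-0.87, and -0.59 after the curve). Adss, which makes adenylosuccinate, had 23.0 TPM in library 2 and 36.5 TPM in library 1 (-1.57, and -0.32 after the curve). Prps2, which makes phosphoribosyl pyrophosphate, had 5.54 and 9.44 TPM in libraries 2 and 1 (-1.70, and -0.39 after the curve). For Paics, as for Mocs2, Gphn and Slc17a3 below, TPM was higher in library 2 while the TMM-scaled log2 fold was negative.

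The molybdenum cofactor serves Xdh and the aldehyde oxidases, and all 6 genes of its list were tested. Of these, 2 were higher in library 2, none lower and 4 within the threshold, with a median log2 fold of 0.86, beside 33.0% higher and 24.0% lower over all genes tested. After subtraction of the GC curve the median was -0.01. Mocs2, which forms molybdopterin, had 127 TPM in library 2 and 84.4 TPM in library 1 (-0.45, and 1.03 after the GC curve). Gphn, which inserts molybdenum, had 31.9 and 26.1 TPM in libraries 2 and 1 (-0.60, and 0.11 after the curve). Mocos, the sulfurase that activates Xdh and the aldehyde oxidases, had 32.9 TPM in library 2 and 5.25 TPM in library 1 (1.76, and 0.07 after the curve). Suox, sulfite oxidase, another enzyme that uses the cofactor, had 104 TPM in library 2 and 31.1 TPM in library 1 (0.85, and -0.10 after the curve).

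Of 15 transporters of urate and nucleosides, 8 were tested, 2 were higher, none was lower and 6 were within the threshold, beside 33.0% higher and 24.0% lower over all genes tested. Slc29a1, an equilibrative nucleoside transporter, had 187 TPM in library 2 and 19.1 TPM in library 1 (2.79, and 0.81 after the GC curve). Slc22a7, an organic anion transporter, had 27.5 TPM in library 2 and 1.25 TPM in library 1 (3.56, and 1.05 after the curve). Slc17a3, a phosphate and urate transporter, had 39.1 TPM in library 2 and 37.4 TPM in library 1 (-0.94, and -0.02 after the curve). Of the 4 adenosine receptors, Adora1 had 4.56 TPM in library 2 and 0.80 TPM in library 1. Its log2 fold was 1.54, and 0.06 after the curve. Adora2a had 25 counts in library 2 and 0 in library 1, with a lower counting bound of 2.33 on its log2 fold. Adora2b was listed at 0 in both libraries, and Adora3 had 0 TPM in library 2 and 0.04 TPM in library 1.

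**Figure D5:**
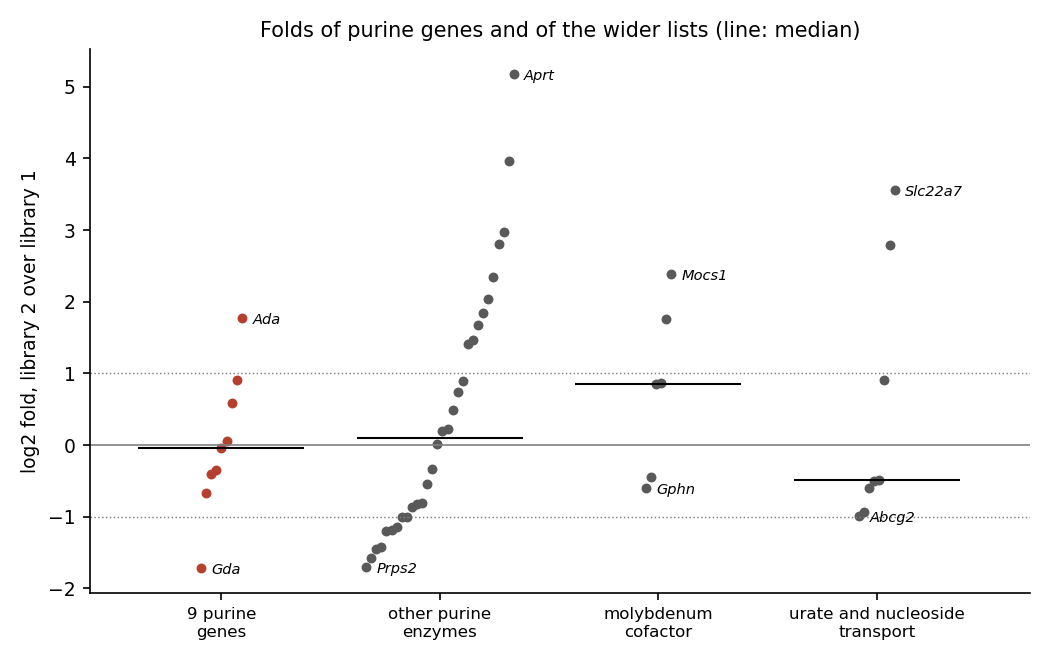
Log2 fold of library 2 over library 1 for the 9 purine genes and for the tested genes of 3 wider lists, with the median of each list (line) and the threshold of 1 in size (dotted). The 9 genes run from Gda at -1.72 to Ada at 1.77, and the other purine enzymes from Prps2 at -1.70 to Aprt at 5.18.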

How the data were processed

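Liver RNA of 1 mouse was measured in 2 polyA libraries. Per the labels, RNA was extracted with an RNeasy lipid tissue kit, and the assembly is mm10. Per the file headers and descriptions, the annotation is M4. Which quantification tool, aligner and strand setting were used is not given in the sources used here. The authors deposited expected counts per gene and transcript, which are estimates and not normalised. Deposited TPM and FPKM are normalised to effective length and library size. The deposited isoform share is in percent of a gene's TPM.

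Names, coordinates and sequences came from GENCODE M21 on the same assembly: 42450 of 43346 genes matched by gene identifier and 149 more by transcript identifiers. After rounding, genes whose counts in both libraries summed to 20 or more entered the fold, and TMM factors (1.22 for library 2, 0.818 for library 1) came from edgeR 4.0.16, which was run for scaling only. DESeq2 1.42.0 size factors were an alternative. Library 2 was divided by library 1, with no p-value, since each side has 1 library. The calculation of the fold and its interval was checked on simulated counts in which few genes changed and the counts had no GC trend. These libraries differ from that setting, so the check does not show how either performs here. GC content was that of the longest coding transcript whose M21 length lay within 10% of the deposited one, or the longest of any type where a gene had none, a choice made after values were seen. The loess span was 0.3. PCR reads are not independent molecules, so intervals cover counting error only. Posterior standard deviations are the authors' own. The named genes were the 9 members, their transcripts of at least 5% share, and from the wider list the 8 of highest mean TPM, the 3 largest folds in each direction among genes reaching 1 TPM, same-step partners and paralogs, and adenosine receptors. Members, lists and rules were chosen with earlier results of these data known.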

Additional observations from a re-analysis of the deposited data

How the results depend on the processing

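No paired analysis was possible because the 2 libraries form 1 group. Library, date and handling cannot be told apart, and depth limits Ada (27 counts in library 2, 6 in library 1), which has no value at a count minimum of 200. With DESeq2 size factors, TMM over nuclear protein-coding genes or a prior count of 2, no count of genes past the threshold moved by over 1.5 times, for the 9 genes, the wider list or all genes. The 9 genes with a higher level in library 2, 1 with TMM, numbered 3 with total counts, 4 with TPM ratios, 4 with FPKM ratios, 0 after the GC curve and 3 at a 1.5-fold threshold. The lower ones, 1 with TMM, numbered 0 with TPM ratios, 0 after the GC curve and 2 at 1.5-fold. In the wider list the 16 higher genes became 6 after the GC curve, and the 7 lower ones 1 with total counts, 0 with TPM ratios, 1 with FPKM ratios, 1 after the GC curve and 16 at 1.5-fold. Over all genes, the 4197 higher of 12728 became 6692 of 18290 with no count minimum, 2770 of 8820 at a minimum of 200 and 1166 of 12128 after the GC curve. The 3056 lower became 984 with total counts, 337 with TPM ratios, 926 with FPKM ratios, 1960 of 8820 at a minimum of 200 and 1061 of 12128 after the GC curve. The count minimum thus also changed the number of genes tested. The fold of Pnp turned from -0.04 to 1.78 with TPM ratios and 1.47 with FPKM ratios, where its effective length differed between the libraries. At a minimum of 200, Urah reached 1.01 and passed the threshold. In the order of levels 2 genes changed place with FPKM, 2 on the nuclear protein-coding scale, 2 at a pseudocount of 1, and 2 to 4 with 1 library left out. Causes of these differences were not tested.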
